A study of Mus musculus with 14 samples.

Results

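The imprinted and fetal liver genes described here are Meg3, Rian, Mirg, H19, Igf2, Dlk1, Cdkn1c, Peg3, Afp and Gpc3. They are 10 of the 51912 gene rows in each count file and were matched by symbol. They were chosen by the level of Meg3, which stood among the leading genes of the comparison of asymptomatic with control livers. The other genes are imprinted or known from fetal liver. That comparison is therefore described for them without a test. Total RNA came from the left liver lobe of untreated mice at 20 weeks. The 5 AIH libraries are from Tet2fl/fl vav cre+ mice with autoimmune hepatitis. The 5 asymptomatic libraries are from Tet2fl/fl vav cre+ mice free of symptoms. The 4 control libraries are from Tet2fl/fl cre- littermates, labelled as healthy and wild type, whose Tet2 alleles are floxed but not deleted. Vav-cre acts in the blood-forming lineage, so hepatocytes of both cre-positive groups are not the intended site of deletion. The labels name no individual animals beyond the libraries, and p-values measure the spread between these libraries.

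An imprinted gene is read from the chromosome of 1 parent, under the control of DNA methylation laid down in the germ line. Many imprinted genes are active in the fetus, among them in fetal liver, and are shut down in the weeks after birth. Meg3, Rian and Mirg are maternally expressed long noncoding RNAs of the Dlk1-Dio3 domain on chromosome 12, read in the same direction and hosts of many microRNAs and small nucleolar RNAs. Dlk1, of the same domain, encodes a paternally expressed membrane protein related to the Notch ligands and made by fetal hepatoblasts. H19 and Igf2 are neighbours on chromosome 7 with opposite imprints: H19 is a maternally expressed noncoding RNA and Igf2 a paternally expressed fetal growth factor. Cdkn1c encodes a cyclin-dependent kinase inhibitor of the CIP/KIP family and Peg3 a zinc finger protein, and both are imprinted. Afp, alpha-fetoprotein, is the main plasma protein of the fetal liver, and Gpc3 is a cell surface glypican of fetal liver. Neither Afp nor Gpc3 is imprinted. Afp, Gpc3, H19 and Igf2 are known to return in regenerating liver or in liver tumours.

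The promoters of Meg3, Rian and Peg3 are shown, the first pair because Meg3 and Rian varied together in these livers and Peg3 because it shares a motif with Meg3. The sequences run from 250 bases before to 50 bases after the annotated start, from RefSeq on GRCm38.p6. Capitals mark TGACGTCA, the cyclic AMP response element bound by CREB family factors, which began 57 bases before the start of Meg3 and 178 bases before that of Peg3. The Rian promoter holds no such letters and is all in lower case.
Meg3 promoter, chr12:109540746-109541045 (+ strand): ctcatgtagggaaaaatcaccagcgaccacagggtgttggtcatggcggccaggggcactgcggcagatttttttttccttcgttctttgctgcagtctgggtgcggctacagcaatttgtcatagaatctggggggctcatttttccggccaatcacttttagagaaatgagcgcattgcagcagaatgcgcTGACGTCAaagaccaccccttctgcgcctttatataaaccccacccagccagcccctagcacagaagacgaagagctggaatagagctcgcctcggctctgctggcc
Rian promoter, chr12:109603695-109603994 (+ strand): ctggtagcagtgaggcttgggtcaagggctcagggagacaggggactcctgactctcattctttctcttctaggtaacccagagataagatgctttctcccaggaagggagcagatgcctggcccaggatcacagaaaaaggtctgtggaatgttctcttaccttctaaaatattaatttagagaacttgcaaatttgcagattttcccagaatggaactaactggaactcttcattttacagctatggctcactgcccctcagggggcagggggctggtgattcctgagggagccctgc
Peg3 promoter, chr7:6730370-6730669 (− strand): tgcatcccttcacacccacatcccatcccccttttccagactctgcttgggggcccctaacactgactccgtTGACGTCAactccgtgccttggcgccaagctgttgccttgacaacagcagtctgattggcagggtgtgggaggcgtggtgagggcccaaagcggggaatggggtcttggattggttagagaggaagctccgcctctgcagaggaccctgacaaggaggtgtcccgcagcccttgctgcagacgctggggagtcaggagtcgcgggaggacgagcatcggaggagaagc
The motif was searched on both strands of 32851 promoters of the same length. TGACGTCA was present in 588 of them (1.79%). Among the 12 promoters listed for 8 of the members, TGACGTCA was found in 2, those of Meg3 and Peg3. The motif is described as letters in these windows and nothing is drawn from it about a factor.

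H19 and Meg3 are also precursors of microRNAs, which are shown because H19 had the largest fold change of the members in AIH livers. Capitals mark the seed, bases 2 to 8 of the mature RNA, and no pair of these arms shares a seed. miR-675 lies in the H19 exon at chr7:142577078-142577133 (− strand) and miR-770 in a Meg3 exon at chr12:109563710-109563765 (+ strand).
mmu-miR-675-5p: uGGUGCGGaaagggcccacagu
mmu-miR-675-3p: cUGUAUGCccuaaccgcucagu
mmu-miR-770-5p: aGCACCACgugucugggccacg
mmu-miR-770-3p: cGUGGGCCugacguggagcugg
The separate rows of Mir675 and Mir770 held 0 counts in all 14 libraries, so no microRNA level is given.

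Gene totals ran from 17347056 to 18156913 counts per library in AIH, 15968380 to 18031810 in asymptomatic and 17691897 to 18915729 in control livers. Hepatocyte markers were abundant in every group, with a summed level of 95209 to 169963 CPM (counts-per-million units on TMM-scaled library totals) in AIH, 135489 to 163853 in asymptomatic and 129056 to 170874 in control livers. The labels used here do not give sex. Counts of Xist and Y-linked genes gave 4 females and 1 male in AIH, 5 males in asymptomatic, and 2 females and 2 males in control. Reads that did not align took 3.23% to 6.54% of AIH, 4.93% to 9.27% of asymptomatic and 4.17% to 4.89% of control libraries. Asymptomatic 2, at 4.93%, was the lowest of its group, and the other asymptomatic libraries lay between 7.80% and 9.27%. Group therefore cannot be fully told apart from sex, nor the asymptomatic group from the unaligned share. The AIH libraries are numbered 11 to 15 by the submitters and the others 1 to 10, and if the numbers mark an order of preparation, it cannot be told apart from AIH. In bulk liver, fewer cells of a type and less RNA per cell cannot be told apart.

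Meg3 and Rian, of the chromosome 12 domain, held at most 10 counts in AIH and control livers and 25 to 109 counts in 4 of 5 asymptomatic livers. Meg3 (ENSMUSG00000021268, GRCm38 chr12:109541001-109571726, + strand) had 4, 2, 7, 3 and 7 counts in AIH 1 to 5. It had 42, 4, 28, 101 and 59 counts in asymptomatic 1 to 5, and 0, 1, 5 and 2 counts in control 1 to 4. Only asymptomatic 2 lay in the range of the other groups, and the remaining 4 asymptomatic livers were above every AIH and control liver. Meg3 averaged 0.244 ± 0.131 CPM in AIH (SD, n = 5), 3.04 ± 2.37 CPM in asymptomatic (SD, n = 5) and 0.1102 ± 0.117 CPM in control livers (SD, n = 4). Over pooled counts the asymptomatic level was 26.4 times the control level, with a 95% counting interval of 13.2 to 61.8. The fitted log2 fold change of asymptomatic against control was 4.67 ± 0.88 (SE). These are the values that chose Meg3, and they are given as a description.

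Rian (ENSMUSG00000097451, chr12:109603940-109661716, + strand), the host of a large cluster of small nucleolar RNAs downstream of Meg3, followed the same libraries. It had 3, 2, 10, 2 and 3 counts in AIH 1 to 5, then 38, 7, 25, 109 and 57 counts in asymptomatic 1 to 5, and 3, 2, 10 and 0 counts in control 1 to 4. The same 4 asymptomatic livers were above all others, and asymptomatic 2 was again within the control range. In asymptomatic 1 to 5, Rian had 0.905, 1.75, 0.893, 1.08 and 0.966 counts for each Meg3 count. The 4 livers with many counts thus held nearly equal numbers of the 2 RNAs. Across the 14 libraries, deviations of Meg3 and Rian from their group means correlated at r = 0.64 on the log2 CPM scale, given as a description over libraries that share their depth and quality.

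Rian averaged 0.217 ± 0.205 CPM in AIH, 3.06 ± 2.55 CPM in asymptomatic and 0.208 ± 0.236 CPM in control livers. The log2 fold change of AIH against asymptomatic livers was -3.80 ± 0.79 (SE), with an adjusted p of 0.00266 in edgeR's quasi-likelihood test. Rian passed the filter on low counts through 4 asymptomatic libraries alone, so it had to be high there to be tested, and asymptomatic libraries took part in the choice of Meg3, with which Rian moves. The p is therefore no independent support. In a fit with no filter, the value was -3.86 ± 0.76 (adjusted p = 0.00174). Against controls the Rian difference of 0.02 ± 0.99 did not pass (adjusted p = 0.992, 95% interval -2.10 to 2.13). The asymptomatic difference from control, given as a description, was 3.82 ± 0.87, and the pooled ratio was 14.2 with a counting interval of 8.43 to 25.7. For Meg3 the fitted difference of AIH from asymptomatic livers was -3.61 ± 0.72 and that of AIH from control livers 1.06 ± 0.95, both without a test.

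**Figure D1:**
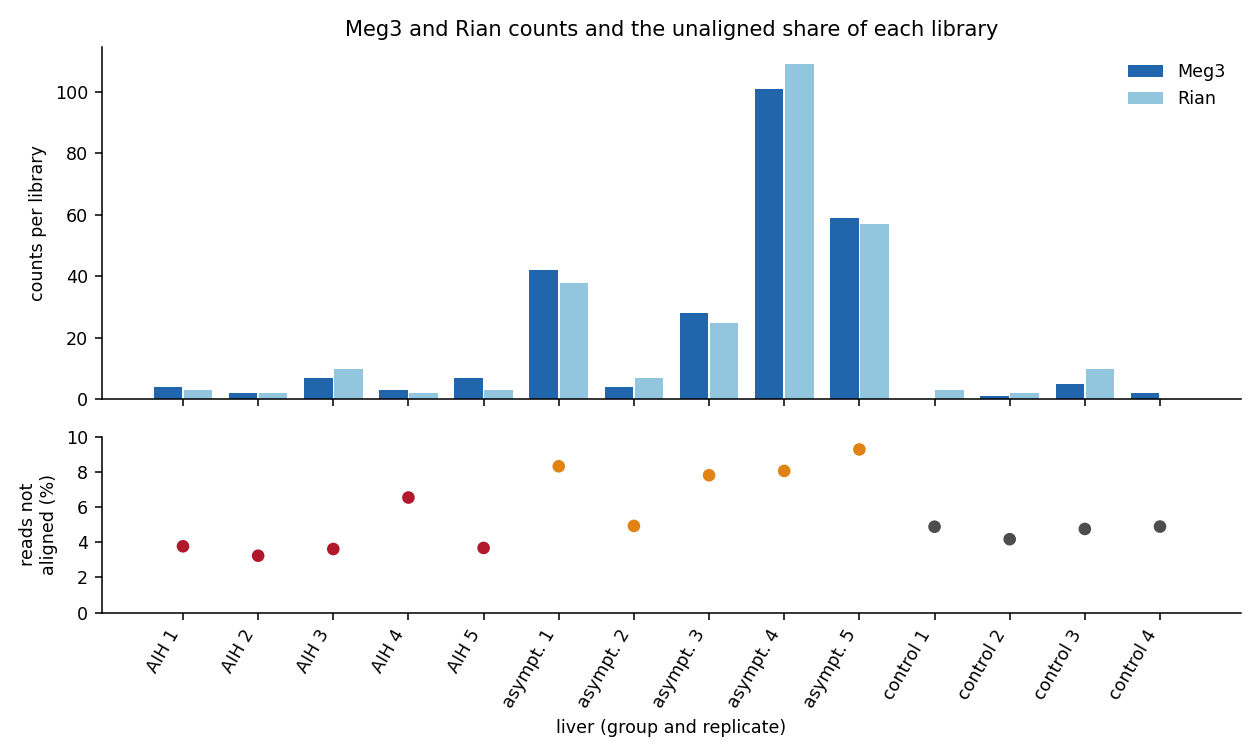
Counts of Meg3 and Rian in each library (upper panel, bars, linear axis from 0) and the percentage of reads that did not align (lower panel, points), by group and replicate. Asymptomatic 1, 3, 4 and 5 hold 25 to 109 counts of each RNA and the highest unaligned shares, and all other libraries hold at most 10 counts.

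The unaligned share moved with these 2 RNAs. The 4 libraries with 25 or more Meg3 counts were the 4 with the highest unaligned share, at 7.80% to 9.27%. AIH 4 followed at 6.54% with 3 Meg3 and 2 Rian counts. Those 4 asymptomatic libraries also had the highest shares of reads not aligned uniquely, at 34.3% to 37.0%. Their gene totals, 15968380 to 16929314 counts, were the lowest of all libraries. With the unaligned share as a term, the asymptomatic difference of Meg3 from control was 2.64 on the log2 scale. With that term the difference of Rian in AIH from asymptomatic livers was -1.89 (adjusted p = 0.680). Sex moved with the groups too. With sex as a term the Meg3 difference of asymptomatic from control livers was 5.27, and within males it was 5.57. The Rian difference of AIH from asymptomatic livers was -5.11 with sex as a term (adjusted p = 0.0174) and -4.68 within males (adjusted p = 0.197), where AIH has 1 liver.

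Mirg and Dlk1, the other members from the domain, held at most 3 counts in any library. Mirg (ENSMUSG00000097391, chr12:109729764-109749460, + strand), the third noncoding RNA in line and host of a microRNA cluster, had 1, 3, 3, 0 and 0 counts in AIH 1 to 5. It had 0, 0, 2, 3 and 0 counts in asymptomatic 1 to 5 and 0, 0, 1 and 0 counts in control 1 to 4. All 3 groups overlapped, and the pooled ratio of AIH to control was 5.17 with a counting interval of 0.664 to 233.0. Dlk1 (ENSMUSG00000040856, chr12:109452823-109463336, + strand) had 2 counts in AIH 3, 1 count in asymptomatic 4 and 0 counts in all other libraries. The control sum of 0 allows a level of up to 0.0422 CPM at 3 counts over the group, and the AIH and asymptomatic sums were under 3 counts as well. Neither gene passed the filter on low counts. In a fit with no filter, Mirg differed by 1.90 ± 1.34 (adjusted p = 0.421) and Dlk1 by 1.98 ± 1.39 (adjusted p = 0.419) in AIH against control livers. Against asymptomatic livers, these were 0.13 ± 1.08 for Mirg (adjusted p = 0.962) and 0.49 ± 1.32 for Dlk1 (adjusted p = 0.846).

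From Begain to Dio3, the files list 122 gene rows, and 11 of them held a count in any library. Gm34667 held 403 counts in AIH, 233 in asymptomatic and 376 in control livers, and Dio3os, the antisense partner of the deiodinase gene Dio3, held 62, 27 and 58 counts in the same order of groups. Dio3 itself had 15, 0 and 10 counts. None of these 3 had more counts in asymptomatic than in control livers, unlike Meg3 with 234 against 8 counts and Rian with 236 against 15. The paternally expressed Rtl1 had 0 counts in every library.

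**Figure D2:**
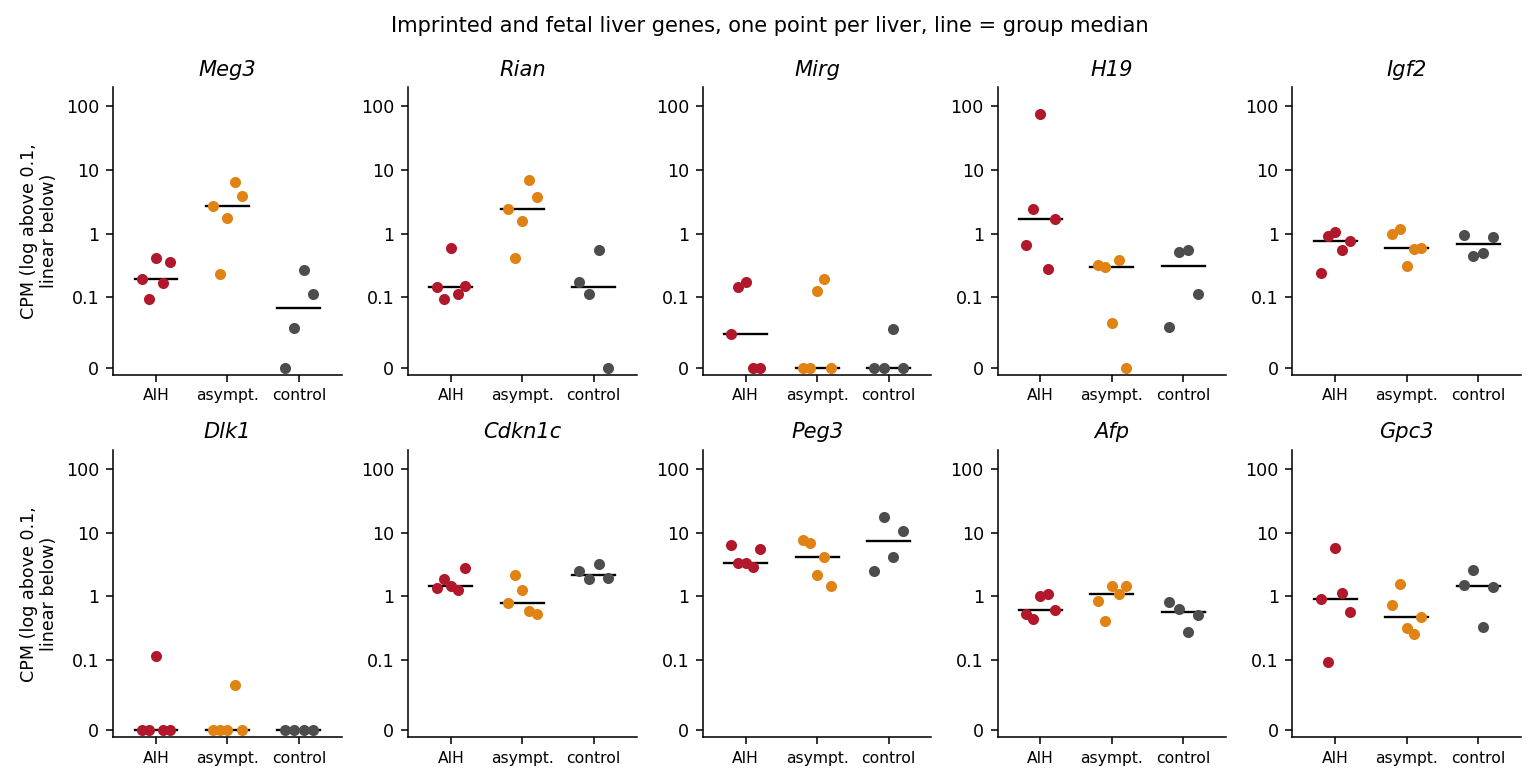
Level of each of the 10 genes in CPM per liver (points) in AIH, asymptomatic and control groups, with the group median as a line, on an axis that is logarithmic above 0.1 and linear below. Meg3 and Rian stand high in 4 of 5 asymptomatic livers, H19 reaches 75.9 CPM in AIH 3, and the groups of every gene overlap.

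H19 (ENSMUSG00000000031, chr7:142575529-142578143, − strand) was higher in 4 of 5 AIH livers than in any other liver. It had 14, 51, 1303, 5 and 33 counts in AIH 1 to 5, against 5, 5, 1, 6 and 0 counts in asymptomatic 1 to 5 and 1, 9, 10 and 2 counts in control 1 to 4. AIH 3 stood far above all, AIH 1, 2 and 5 were also above every asymptomatic and control liver, and AIH 4, the male of its group, was within their range. H19 averaged 16.2 ± 33.4 CPM in AIH (SD, n = 5), 0.214 ± 0.171 CPM in asymptomatic (SD, n = 5) and 0.306 ± 0.256 CPM in control livers (SD, n = 4). The log2 fold change of AIH was 5.68 ± 1.59 against control (adjusted p = 0.0201) and 6.19 ± 1.52 against asymptomatic livers (adjusted p = 0.00729, edgeR). H19 passed the filter through 4 AIH libraries alone, so it had to be high there to be tested. In a fit with no filter, the values were 5.65 ± 1.44 (adjusted p = 0.0143) and 6.13 ± 1.37 (adjusted p = 0.00441). The asymptomatic difference from control was -0.50 ± 1.82, given as a description.

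One library decided the size of the H19 difference. AIH 3 held 92.7% of all H19 counts of the AIH group. The other 4 AIH livers averaged 1.27 ± 0.993 CPM (SD, n = 4), a pooled 4.21 times the control level (counting interval 2.64 to 7.004) and 6.04 times the asymptomatic level (3.59 to 10.8). Without AIH 3, H19 fell below the filter on low counts. In a fit with no filter and without AIH 3, the log2 fold change was 2.005 ± 0.79 against control (adjusted p = 0.130) and 2.49 ± 0.76 against asymptomatic livers (adjusted p = 0.0355). The call against control also ended without control 1 (5.34, adjusted p = 0.0589) and without control 4 (5.39, adjusted p = 0.0591). With sex as a term the log2 fold change was 4.74 against control (adjusted p = 0.0719) and 1.41 against asymptomatic livers (adjusted p = 0.779). Within females, the difference of the 4 AIH from the 2 control livers was 5.24 (adjusted p = 0.0834). The female controls, control 2 and 3, had 9 and 10 H19 counts, and the male controls, control 1 and 4, had 1 and 2. The pooled ratios take no account of sex.

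AIH 3 stood apart in other genes as well. The summed level of 9 cholangiocyte and progenitor markers was 989 CPM in AIH 3, 145 to 205 CPM in the other AIH livers, 45.7 to 184 CPM in asymptomatic and 61.4 to 91.1 CPM in control livers. Spp1, osteopontin, which macrophages make as well, held 881 CPM of the sum in AIH 3 and 74.1 to 108 CPM in the other AIH livers. The keratins Krt7 and Krt19 averaged 1.17 ± 0.783 and 1.59 ± 1.38 CPM in AIH, against 0.664 ± 0.130 and 0.691 ± 0.257 CPM in control livers. The 13 stellate cell and fibroblast markers summed to 625 to 1450 CPM in AIH, with AIH 3 the highest, 254 to 548 CPM in asymptomatic and 337 to 495 CPM in control livers. The hepatocyte sum of AIH 3 was also the highest of its group, at 169963 CPM against 95209 to 124586 CPM in the other AIH livers. Its leukocyte sum was the lowest of the group, at 743 CPM. The part of any of these cells in the H19 level was not tested.

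Igf2 (ENSMUSG00000048583, chr7:142650766-142666816, − strand), the imprinted neighbour of H19, did not pass the test. It had 5, 19, 18, 10 and 15 counts in AIH 1 to 5, 15, 20, 5, 9 and 9 counts in asymptomatic 1 to 5 and 16, 8, 9 and 16 counts in control 1 to 4. The ranges coincided almost fully, and AIH 3 with its 1303 H19 counts had 18 Igf2 counts. Igf2 averaged 0.706 ± 0.319 CPM in AIH, 0.729 ± 0.343 CPM in asymptomatic and 0.693 ± 0.257 CPM in control livers. The log2 difference of AIH was 0.02 ± 0.45 from control (adjusted p = 0.979, 95% interval -0.95 to 0.995) and -0.05 ± 0.43 from asymptomatic livers (adjusted p = 0.940, interval -0.97 to 0.86). At 5 to 20 counts per library, changes within these intervals were not detectable. Gm49394, which shares 62.8% of the Igf2 exon bases on the same strand in the annotation, was not among the rows used here.

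Cdkn1c and Peg3, the other 2 imprinted genes of chromosome 7, were the most abundant members per kilobase of exon in control livers, at 1.16 ± 0.310 and 0.657 ± 0.527 CPM per kb. Gpc3 followed at 0.538 ± 0.337, then Afp at 0.164 ± 0.0678, H19 at 0.124 ± 0.104 and Igf2 at 0.121 ± 0.0449 CPM per kb. Rian at 0.0114 ± 0.0129, Meg3 at 0.00609 ± 0.00649 and Mirg at 0.00187 ± 0.00374 CPM per kb came last before Dlk1, which had no count. The mean ± SD of neighbours in this order overlapped except between Igf2 and Rian. In asymptomatic livers Meg3 and Rian reached 0.168 ± 0.131 and 0.168 ± 0.140 CPM per kb, next to Igf2 at 0.127 ± 0.0600. In AIH livers H19 came first in the mean, at 6.59 ± 13.6 CPM per kb, ahead of Cdkn1c at 0.844 ± 0.298.

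Cdkn1c (ENSMUSG00000037664, chr7:143458339-143461050, − strand) was low in the same 4 asymptomatic livers that were high in Meg3. Its level was 1.34, 1.85, 1.46, 1.23 and 2.73 CPM in AIH 1 to 5, 0.780, 2.18, 1.25, 0.582 and 0.532 CPM in asymptomatic 1 to 5, and 2.46, 1.87, 3.21 and 1.90 CPM in control 1 to 4. Asymptomatic 1, 3, 4 and 5 were below every control liver and asymptomatic 2 was among the controls. AIH 1, 2, 3 and 4 were also below every control liver and AIH 5 was among the controls, so low Cdkn1c was not particular to asymptomatic livers. The asymptomatic difference from control was -1.13 ± 0.40 on the log2 scale, given as a description, and -0.30 with the unaligned share as a term. AIH differed by -0.45 ± 0.39 from control (adjusted p = 0.453) and by 0.68 ± 0.39 from asymptomatic livers (adjusted p = 0.196). Without asymptomatic 2, the second difference was 1.121 (adjusted p = 0.0256), so that this library decides the call. The antisense gene Gm44732 shares 30.7% of the Cdkn1c exon bases and held 2 counts in all.

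Peg3 (ENSMUSG00000002265, chr7:6703892-6730431, − strand) varied most among control livers. It had 6.43, 3.35, 3.32, 2.85 and 5.50 CPM in AIH 1 to 5, 7.54, 6.88, 2.13, 4.14 and 1.46 CPM in asymptomatic 1 to 5, and 2.46, 17.9, 4.09 and 10.6 CPM in control 1 to 4. Control 2 and control 4 were above every other liver, and control 1 and control 3 lay within the range of the cre-positive groups. Peg3 averaged 4.29 ± 1.58 CPM in AIH, 4.43 ± 2.73 CPM in asymptomatic and 8.75 ± 7.02 CPM in control livers. AIH differed by -1.02 ± 0.55 from control (adjusted p = 0.207) and by -0.04 ± 0.53 from asymptomatic livers (adjusted p = 0.959). Without control 2 the first difference was -0.43 (adjusted p = 0.636). The asymptomatic difference from control, as a description, was -0.98 ± 0.55.

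Afp (ENSMUSG00000054932, chr5:90490737-90508907, + strand), the fetal plasma protein, had few counts in all groups. It had 11, 9, 17, 19 and 12 counts in AIH 1 to 5, 13, 7, 23, 17 and 22 counts in asymptomatic 1 to 5, and 14, 11, 5 and 9 counts in control 1 to 4. AIH livers lay within the range of the other groups, and asymptomatic 1, 3, 4 and 5 were above every control liver in CPM. Afp averaged 0.725 ± 0.283 CPM in AIH, 1.05 ± 0.441 CPM in asymptomatic and 0.554 ± 0.228 CPM in control livers. AIH differed by 0.38 ± 0.44 from control (adjusted p = 0.580, 95% interval -0.55 to 1.31) and by -0.54 ± 0.40 from asymptomatic livers (adjusted p = 0.325, interval -1.39 to 0.31). The interval against control does not reach a rise of 4-fold. The asymptomatic difference from control was 0.92 ± 0.44 as a description, and -0.16 with the unaligned share as a term. Alb, the adult neighbour of Afp in the albumin gene family, averaged 86616 ± 28811 CPM in AIH, 99993 ± 11030 CPM in asymptomatic and 98440 ± 18160 CPM in control livers (-0.18 ± 0.22 against control, adjusted p = 0.600).

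Gpc3 (ENSMUSG00000055653, chrX:52272426-52613950, − strand) had 19, 2, 97, 20 and 11 counts in AIH 1 to 5, 11, 26, 5, 4 and 7 counts in asymptomatic 1 to 5, and 26, 45, 6 and 25 counts in control 1 to 4. AIH 3, the liver highest in H19, was also the highest in Gpc3, with 65.1% of the AIH counts, and AIH 2 was the lowest of all. Gpc3 averaged 1.67 ± 2.26 CPM in AIH, 0.657 ± 0.519 CPM in asymptomatic and 1.45 ± 0.906 CPM in control livers. AIH differed by 0.19 ± 0.83 from control (adjusted p = 0.901) and by 1.31 ± 0.82 from asymptomatic livers (adjusted p = 0.245). Without AIH 3 these were -1.10 (adjusted p = 0.309) and 0.01 (adjusted p = 0.996). The asymptomatic difference from control was -1.12 ± 0.86 as a description.

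Of the 9 members other than Meg3, 7 passed the filter and 1 was called in AIH against control livers, where 21.7% of the 14638 genes tested were called, 15.6% higher and 6.08% lower. In AIH against asymptomatic livers 2 of 7 were called, where 29.8% of all genes were, 19.1% higher and 10.7% lower. H19 was higher in both, and Rian was lower in the second. H19 and Rian passed the filter only through the group in which they are high, and the shares lie near those of all genes, so the counts are no result about the set. No member's groups were free of overlap in any comparison, whereas 19.8% of all genes were in AIH against control (13.2% higher, 6.61% lower). The share was 16.9% in AIH against asymptomatic (12.3% higher, 4.65% lower) and 2.43% in asymptomatic against control livers (1.27% higher, 1.15% lower). In asymptomatic against control livers edgeR called 0% of all genes. There 1542 genes had an unadjusted p under 0.05, DESeq2 called 109 and limma-voom 1299. Asymptomatic libraries enter 2 of the comparisons and control libraries 2, so these results are not independent of each other.

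**Figure D3:**
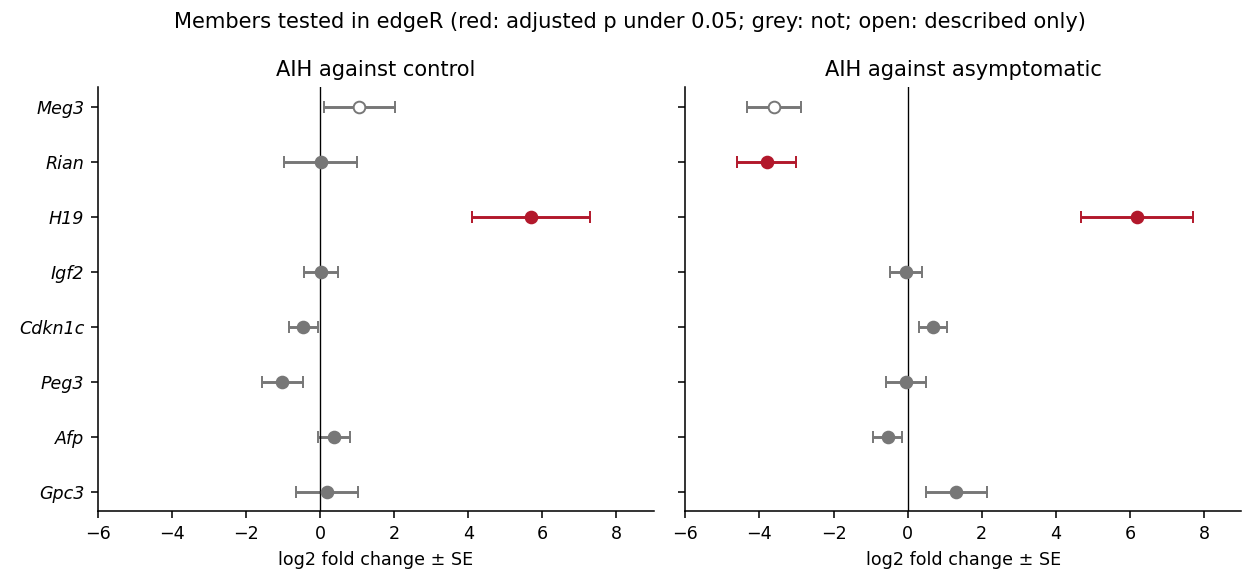
Log2 fold change with SE of the 8 members that passed the count filter, in AIH against control (left) and AIH against asymptomatic livers (right). H19 lies at 5.68 and 6.19, Rian at 0.02 and -3.80, and the members from Igf2 to Gpc3 lie between -1.02 and 1.31.

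The imprinted gene network, a set of 15 imprinted genes known to be expressed together in mouse tissues and shut down after birth, includes 6 of the members. Of the 9 others, all tested, 2 were higher and 1 was lower in AIH against control livers (33.3% called, against 21.7% of all genes), with a median of 0.57 against -0.01 over all genes. Mest, a paternally expressed gene of growing mesoderm, rose to 6.79 ± 2.25 CPM in AIH, against 2.27 ± 0.819 CPM in control livers (log2 fold change 1.58 ± 0.35, adjusted p = 0.00510), and the groups did not overlap. Gatm, an enzyme of creatine synthesis, rose to 30.6 ± 13.3 CPM in AIH, against 13.5 ± 4.56 CPM in control livers (1.18 ± 0.30, adjusted p = 0.0124). Igf2r, the maternally expressed receptor that removes IGF2, fell to 37.3 ± 11.1 CPM in AIH, against 57.6 ± 3.81 CPM in control livers (-0.63 ± 0.21, adjusted p = 0.0419), a call lost without AIH 1, 2 or 3 or any control library (adjusted p up to 0.1003). In AIH against asymptomatic livers 3 of the 9 were higher (Mest, Gatm and Dcn, a proteoglycan of fibroblasts) and Igf2r was lower (-0.54 ± 0.20, adjusted p = 0.0488), where 29.8% of all genes were called. That call of Igf2r was lost without any of AIH 1, 2, 3 or 5 or asymptomatic 1, 2, 4 or 5 (adjusted p up to 0.113). With the unaligned share as a term, no gene of the network was called in that comparison.

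Among 28 other imprinted genes, 12 were tested in AIH against control livers, none rose and 2 fell (16.7% called, against 21.7% of all genes). Slc22a3, an organic cation transporter, averaged 2.09 ± 0.884 CPM in AIH and 6.01 ± 0.596 CPM in control livers (-1.52 ± 0.34, adjusted p = 0.00575). Inpp5f, a phosphoinositide phosphatase, averaged 20.7 ± 3.68 CPM in AIH and 30.5 ± 4.13 CPM in control livers (-0.56 ± 0.17, adjusted p = 0.0321), a call lost without AIH 1, 2, 3 or 5 or control 1 or 4 (adjusted p up to 0.0916). Inpp5f also fell against asymptomatic livers (-0.76 ± 0.17, adjusted p = 0.00347), a call lost in 3 of 22 alternative fits, none of them leaving out 1 library.

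The IGF ligands, receptors and binding proteins, through which Igf2 acts, had 1 higher and 3 lower of 13 tested genes in AIH against control livers, where 15.6% of all genes were higher and 6.08% lower. Igfbp7, a binding protein of vessel walls and stroma, rose to 114 ± 30.3 CPM in AIH, against 65.0 ± 2.66 CPM in control livers (0.81 ± 0.17, adjusted p = 0.00330). Igfbp2, a binding protein secreted by hepatocytes, fell to 167 ± 61.7 CPM in AIH, against 376 ± 81.8 CPM in control livers (-1.17 ± 0.24, adjusted p = 0.00335). Insr, the insulin receptor, fell to 136 ± 45.8 CPM in AIH, against 236 ± 19.5 CPM in control livers (-0.79 ± 0.24, adjusted p = 0.0295), a call lost without AIH 1, 2 or 3 or control 1 or 2 (adjusted p up to 0.0731). Igf2r was the third to fall. Against asymptomatic livers 4 were higher (Igfbp7, Igfbp1, Igf1r and Igfbp3) and 2 lower (Igfbp2 and Igf2r), where 19.1% of all genes were higher and 10.7% lower. There Igfbp1, a binding protein induced in stressed hepatocytes, averaged 505 ± 704 CPM in AIH and 31.9 ± 31.0 CPM in asymptomatic livers (3.98 ± 0.99, adjusted p = 0.00770). The calls of Igfbp1 and Igfbp2 against asymptomatic livers were each lost in 3 of 22 alternative fits, and that of Igfbp7 in 2. None of these losses came from leaving out 1 library. Igf1r, the receptor through which IGF2 signals, averaged 9.39 ± 5.12 CPM in AIH and 3.35 ± 2.52 CPM in asymptomatic livers (1.48 ± 0.44, adjusted p = 0.0202), a call lost without AIH 3 or asymptomatic 1, 4 or 5 (adjusted p up to 0.0648). Igfbp3, the main carrier of IGFs in plasma, averaged 37.4 ± 21.5 CPM in AIH and 16.7 ± 9.86 CPM in asymptomatic livers (1.16 ± 0.42, adjusted p = 0.0490), a call lost without any of 8 of the 10 libraries (adjusted p up to 0.158). Over all 22 alternative fits, the Igf1r call was lost in 7 and the Igfbp3 call in 17.

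Of 7 known regulators of Afp in postnatal liver, 6 were lower and none higher in AIH against asymptomatic livers. There 10.7% of all genes were lower and 19.1% higher, and Afp itself did not pass the test. The summed level of the 7 was 820 to 1015 CPM in AIH, 1215 to 2300 CPM in asymptomatic and 1186 to 1388 CPM in control livers. None of the 7 was called with sex as a term, with the unaligned share as a term or within males. The median was -0.86 against -0.03 over all genes. Zbtb20, the zinc finger repressor that shuts Afp off after birth, averaged 86.7 ± 39.8 CPM in AIH and 287 ± 146 CPM in asymptomatic livers (-1.73 ± 0.42, adjusted p = 0.00655). Its control level of 154 ± 55.5 CPM lay between them, and AIH was not called against control (-0.83 ± 0.43, adjusted p = 0.186). Zhx2, a second postnatal repressor of Afp and of H19 in mouse liver, averaged 13.1 ± 3.58 CPM in AIH and 20.3 ± 3.62 CPM in asymptomatic livers (-0.64 ± 0.19, adjusted p = 0.0230). That call was lost without AIH 2 or asymptomatic 1 or 4 (adjusted p up to 0.0663). Control livers averaged 16.1 ± 2.37 CPM of Zhx2, and AIH was not called against them (-0.30 ± 0.20, adjusted p = 0.320). Hnf4a (-1.01, adjusted p = 0.00426) and Cebpa (-0.70, adjusted p = 0.00498) are hepatocyte factors that also act on many other genes. Foxa1 (-1.14, adjusted p = 0.0175) and Foxa2 (-0.86, adjusted p = 0.0190) were the remaining calls, and that of Foxa2 was lost without AIH 3 or asymptomatic 5 (adjusted p up to 0.0581).

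Against control livers only Nr5a2, a nuclear receptor that activates Afp, fell among these 7, to 57.6 ± 15.2 CPM in AIH, against 93.9 ± 8.54 CPM in control livers (-0.71 ± 0.21, adjusted p = 0.0241), a call lost without AIH 2, AIH 3 or control 3 (adjusted p up to 0.0609). Of 10 hepatocyte markers, 4 were lower and none higher in AIH against asymptomatic livers, where 10.7% of all genes were lower. Against control livers 1 of 10 was lower and none higher, where 6.08% of all genes were lower. Hnf4a is in both lists. The part of hepatocytes in the level of these regulators was not tested.

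**Figure D4:**
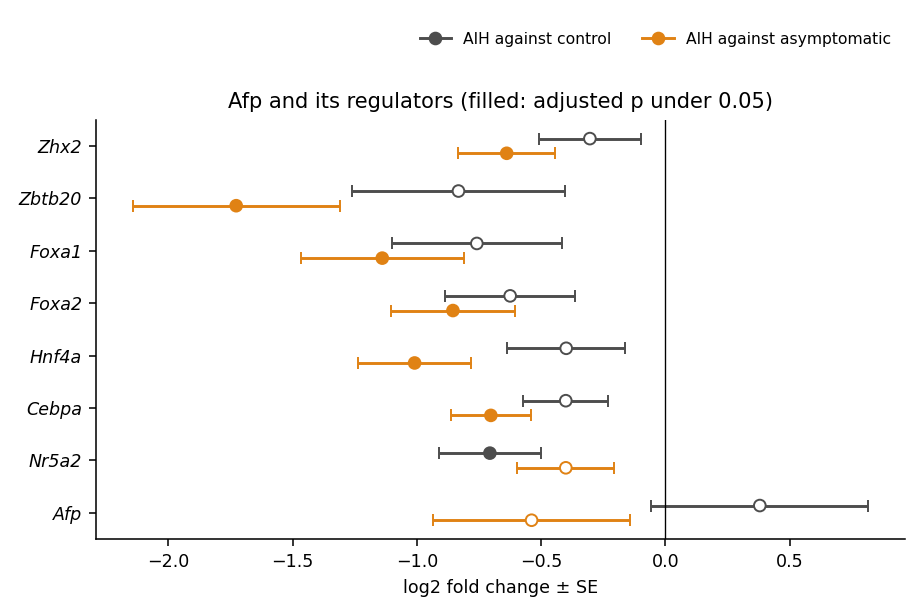
Log2 fold change with SE of Afp and 7 of its regulators in AIH against control (grey) and AIH against asymptomatic livers (orange), filled where the adjusted p was under 0.05. Against asymptomatic livers 6 regulators lie below 0 with filled points, Zbtb20 at -1.73, while Afp lies at -0.54 and is open.

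Other fetal and oncofetal liver genes were partly higher in AIH. Of 16 listed, 6 passed the filter and 3 were higher against control and against asymptomatic livers, none lower, where 15.6% and 19.1% of all genes were higher. Cd24a, a surface protein of progenitor cells and leukocytes, rose to 59.1 ± 37.6 CPM in AIH, against 3.67 ± 1.10 CPM in control livers (4.00 ± 0.51, adjusted p = 9.78e-05). Golm1, a Golgi protein raised in liver disease, rose to 8.35 ± 1.06 CPM in AIH, against 4.24 ± 0.774 CPM in control livers (0.98 ± 0.21, adjusted p = 0.00486), and neither overlapped. Hmga1, a chromatin protein of dividing cells, rose to 4.84 ± 2.11 CPM in AIH, against 2.26 ± 0.252 CPM in control livers (1.09 ± 0.35, adjusted p = 0.0359), a call lost without AIH 1, 2 or 3 or any control library (adjusted p up to 0.0954). Its call against asymptomatic livers (1.05, adjusted p = 0.0246) was lost without AIH 3 or asymptomatic 1, 4 or 5 (adjusted p up to 0.0758). The 7 leukocyte and the 10 proliferation markers were all higher in AIH than in control livers. Leukocyte markers summed to 743 to 1437 CPM in AIH, 135 to 191 CPM in asymptomatic and 111 to 223 CPM in control livers, and proliferation markers to 97.9 to 177 CPM, 7.09 to 13.4 CPM and 6.56 to 11.7 CPM in the same groups. Their part in the rise of Cd24a and Hmga1 was not tested.

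Families of the remaining members were read out too, where 21.7% of all genes were called in AIH against control and 29.8% in AIH against asymptomatic livers. These lists are short, so nothing is drawn from their counts. Of the 4 glypicans tested, Gpc6 alone was called, at 11.4 ± 9.53 CPM in AIH and 3.16 ± 1.70 CPM in control livers (1.84 ± 0.52, adjusted p = 0.0207). Without AIH 3 its difference was 1.18 (adjusted p = 0.0512), and the call was lost as well without control 2, 3 or 4 (adjusted p up to 0.0661). None of the 3 CIP/KIP inhibitors was called in either AIH comparison. None of the 4 genes of the albumin family was called either. Of the 8 Notch receptors and targets tested, chosen for the likeness of Dlk1 to Notch ligands, Hey1 was called, at 2.09 ± 0.795 CPM in AIH and 0.688 ± 0.162 CPM in control livers (1.59 ± 0.43, adjusted p = 0.0168), and it was lost without control 1 (1.47, adjusted p = 0.0557). In asymptomatic against control livers, edgeR and DESeq2 called none of the 119 genes tested from the lists outside the members, and limma-voom called 8, 4 higher and 4 lower. These were Alas2, Dcn, Igfbp5, Reln, Serpina1a, Slc22a3, Zbtb20 and Zfp445.

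Markers of other tissues known to be rich in Meg3 or Cdkn1c, adrenal gland and pancreas islets, were also read out. The summed level of 10 adrenal markers was 0.606 to 3.85 CPM in AIH, 0.816 to 5.43 CPM in asymptomatic and 0.654 to 1.30 CPM in control livers, and Cyp11b1, Mc2r, Th, Dbh and Pnmt had 0 counts in all libraries. Star, which carries cholesterol into mitochondria and was the marker that passed the filter, averaged 0.921 ± 0.410 CPM in AIH, 0.854 ± 0.340 CPM in asymptomatic and 0.850 ± 0.322 CPM in control livers. Cyp11a1, which begins steroid synthesis, averaged 0.549 ± 0.789 CPM in AIH, 0 CPM in asymptomatic and 0.0136 ± 0.0272 CPM in control livers. Cyp21a1, a steroid hydroxylase, averaged 0.0224 ± 0.05005 CPM in AIH, 1.66 ± 1.69 CPM in asymptomatic and 0.0146 ± 0.0292 CPM in control livers, and was named after its values were seen. Of 9 islet markers, Ins1, Ins2, Sst, Ppy and Chga had 0 counts in all libraries, and the sum did not pass 0.291 CPM in AIH, 0.0588 CPM in asymptomatic or 0.168 CPM in control livers. The 10 exocrine pancreas markers summed to 0.504 to 1.22 CPM, 0.0588 to 1.42 CPM and 0.0559 to 0.436 CPM in the same groups. The part of these tissues in the Meg3 level was not tested.

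Likeness to Meg3 and to H19 was measured as the correlation of deviations from the group means over the 14 libraries, among genes with a mean of at least 1 CPM. The 5 genes most like Meg3 were Slc30a6 (r = 0.93), Stxbp6 (r = 0.84), Fam81a (r = 0.83), Zfp446 (r = 0.83) and Zfp930 (r = 0.82). Slc30a6 had 9.32, 8.31, 9.91, 9.34 and 9.60 CPM in AIH 1 to 5, 11.4, 9.06, 10.3, 12.9 and 10.9 CPM in asymptomatic 1 to 5, and 8.48, 10.6, 12.04 and 11.3 CPM in control 1 to 4, a far narrower range than that of Meg3. The 5 genes most like H19 were Sema4c (r = 0.93), Agt (r = 0.91), Vwf (r = 0.90), Ppard (r = 0.89) and Ier3 (r = 0.89). Each of them reached its highest level in AIH 3, which the choice by likeness to H19 favours, so that is no separate result. These are descriptions over libraries that share depth and quality.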

How the data were processed

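The deposited files hold raw counts of reads per gene, 1 file per library, made by the authors. Per the submitters' processing notes, FastQC 0.11.5, cutadapt 1.12, HISAT2 2.1.0 and HTSeq 0.9.0 were used, with GRCm38 among the builds named. The strand setting and annotation release are not given in the sources used here, so overlapping genes on opposite strands cannot be separated. Each file has 51912 gene rows and 5 summary rows. The summary rows were left out of tests and library sizes; reads not aligned uniquely took 28.8% to 37.0% of a library, ambiguous reads 1.38% to 3.05% and reads in no feature 2.29% to 3.29%. Coordinates and exon lengths come from GENCODE M21 on GRCm38, where 51719 gene IDs were found.

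Counts were tested with edgeR 4.0.16 (R 4.3.3). Genes were kept by filterByExpr, here at least 0.562 CPM in 4 libraries, which left 14638. Factors were TMM, the fit had 3 group means over 14 libraries, and the quasi-likelihood test was two-sided with Benjamini-Hochberg adjustment over all genes tested at 0.05. Meg3 and Rian passed the filter through 4 asymptomatic libraries and H19 through 4 AIH libraries. The SE is the log2 fold change divided by the square root of F. The procedure was tested on simulated data. In AIH against control it called 18 of 88 changes of 2-fold and 100 of 112 changes of 4-fold. In AIH against asymptomatic it called 33 of 101 and 90 of 95. Most changes of 2-fold were thus missed, so an uncalled gene may hold one. DESeq2 1.42.0 and limma 3.58.1 were alternatives. Counting intervals are exact at 95% and, like the floor of 3 counts, cover counting error only. By the rule for named genes, these are the members, up to 3 called genes of each list, genes with a known tie to a member, and the 5 genes most like Meg3 and H19. Further called genes of the lists, Dio3os, Gm34667, Spp1, Krt7, Krt19, Star, Cyp11a1 and Cyp21a1 were named after their values were seen. The members and lists were chosen with earlier results of these data known. One gene was left out of the Afp regulator list and is not reported here.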

Additional observations from a re-analysis of the deposited data

Results flagged for a closer look

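In 23 groups of 4 or 5 libraries, the highest and lowest library were compared with the others by Dixon's criterion at 95%. Chance passes it in about 1 of 20 groups if values are normally distributed, and the rate for low counts such as these was not tested. The criterion marked 3 values, all of them the highest AIH liver, AIH 3, as lying far from the other AIH livers. H19 was at 75.9 CPM in AIH 3 and at 0.280 to 2.48 CPM in the other AIH livers. Gpc3 was at 5.65 CPM in AIH 3 and at 0.0972 to 1.119 CPM in the others. Rian was at 0.583 CPM in AIH 3, which is 10 counts, and at 0.0972 to 0.152 CPM in the others, which is 2 or 3 counts each.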

How the results depend on the processing

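H19 in AIH kept its direction under the alternatives that gave a value, but its size varied widely. Against control the log2 fold change ran from 1.63 to 6.10, and the call was lost in 9 of 26 alternatives with an adjusted p. Against asymptomatic livers the log2 fold change ran from 0.37 to 6.51, and the call was lost in 4 of 26. DESeq2 gave no adjusted p for H19. The number of members called against control, 1, was 0 within females, within males, with limma-voom, with DESeq2, in a fit of 2 groups alone, and with a sex or an unaligned-share term, and 0 to 1 leaving out 1 library. H19 was tested in the fit of 2 groups alone (5.68, adjusted p = 0.0546) but fell below the filter without AIH 1, 2, 3 or 5. Against asymptomatic livers the number of members called was 2, then 1 with DESeq2 and with sex as a term, 0 in a fit of 2 groups alone, with the unaligned-share term and within males, and 1 to 3 leaving out 1 library. In that fit of 2 groups 5 members were tested, against 7, since H19 and Rian fell below the filter, and 6 were tested in 8 of the 10 fits that leave out a library, where H19 or Rian fell below the filter and the other kept its call.

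Over all genes, the 3174 calls of AIH against control became 1746 within females and 447 within males (2350 to 3425 leaving out 1 library). The 4355 of AIH against asymptomatic became 1372 with sex as a term, 562 with the unaligned share as a term and 812 within males (3317 to 4649). The 0 of asymptomatic against control became 109 with DESeq2, 1299 with limma-voom and 13 without asymptomatic 2 (0 to 13). Scaling by library totals moved the median of all genes to 0.14 and 0.17 in the 2 AIH comparisons.

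Uncalled log2 fold changes changed sign as follows. Against control, Rian was -0.0047 without the 20 most abundant genes in the scaling, -0.015 with no filter, -0.31 with sex and -0.47 within females (-0.73 to 1.10 leaving out 1 library). Igf2 was -0.0094 with no filter, -0.52 with limma-voom, -0.091 with the unaligned share and -0.70 within males (-0.19 to 0.26). Gpc3 was -0.76 with limma-voom and -0.38 within males (-1.15 to 0.59). Against asymptomatic livers, Igf2 was 0.13 with library totals and 0.26 with sex (-0.29 to 0.19). Peg3 was 0.18 with library totals and 0.34 with limma-voom (-0.31 to 0.23). Cdkn1c was -0.35 with the unaligned share. Afp was 0.66 with the unaligned share and 0.018 within males. Gpc3 ranged from -0.038 to 1.90. Hey1, called in the main comparison, was -0.045 with the unaligned share and -0.031 within males. In asymptomatic against control livers, H19 was 3.33 with sex, 2.56 with the unaligned share and 1.26 within males, and Afp was -0.16 with the unaligned share. The causes were not tested.

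The lists' genes, and the fits that leave out a library with no count filter, were added after the data were seen. Most members held under 100 counts per library, which limits all of these values. No paired analysis was possible because the labels give no replicate numbers.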

Other observations

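Genes that maintain imprints were also read out. Of 6 tested, Uhrf1, a partner of the maintenance DNA methyltransferase, and Dnmt1, that enzyme, rose in AIH against control and against asymptomatic livers. There 15.6% and 19.1% of all genes were higher. Uhrf1 and Dnmt1 kept their call under all 22 alternatives in both AIH comparisons. Uhrf1 averaged 8.42 ± 2.14 CPM in AIH and 0.448 ± 0.277 CPM in control livers (4.21 ± 0.44, adjusted p = 2.26e-05). Dnmt1 averaged 21.5 ± 4.11 CPM in AIH and 9.81 ± 1.08 CPM in control livers (1.13 ± 0.19, adjusted p = 0.000703). Both genes are also raised in dividing cells, and the 10 proliferation markers rose in the same comparisons, so their part in these values was not tested. Zfp445, a zinc finger protein that protects imprints, averaged 65.1 ± 24.95 CPM in AIH, 208 ± 81.0 CPM in asymptomatic and 132 ± 65.2 CPM in control livers. AIH was lower than asymptomatic livers (-1.68 ± 0.35, adjusted p = 0.00272), where 10.7% of all genes were lower, and not called against control (-1.02 ± 0.36, adjusted p = 0.0580). The first of these differences was not called with sex as a term (adjusted p = 0.146) or with the unaligned share as a term (adjusted p = 0.652). Within males, where AIH has 1 liver, it was not called either.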
